A study of Mus musculus with 9 samples.

Results

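The genes described here belong to the dermal adipocyte, the fat cell of the layer beneath the dermis. They are the hormones Adipoq, Lep, Retn and Cfd, the lipid droplet and fatty acid genes Fabp4, Plin1 and Lipe, and the transcription factors Pparg and Cebpa. The members are the probe sets that the platform annotation assigns to 1 of these 9 genes alone. Of the 9 genes, 7 were measured in this way, by 10 probe sets, out of 12393 genes and 22690 probe sets on the array. Fabp4 had 4 probe sets and the other 6 measured genes had 1 each. For Plin1 and Cfd the annotation used here listed no probe set, and they were not analysed here.

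RNA was taken from whole skin of mice on a mixed C57BL, DBA and FVB background at 30 days of age, pooled within a genotype and hybridised to 9 Affymetrix arrays. LC denotes the control mice (n = 3 pools), and L60, L84 and LA denote transgenic mice (n = 2 pools each) of a study whose title names constitutively active Akt and impaired BMP signalling. The labels do not give the promoter of the transgene, how the 3 genotypes differ, or the number of mice in a pool, so p-values measure only the spread between these pools. The deposited values are scores, scaled so that every probe set averages 0 with an SD of 1. Differences between genotypes below are in these SD units and give neither a level nor a fold. A score does not show whether a fat cell marker is abundant or near background, so the presence of fat in each pool could not be checked.

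White adipocytes store triglyceride in a single large droplet and release fatty acids from it when hormone-sensitive lipase (Lipe) and related enzymes are activated. Pparg, a nuclear receptor, and Cebpa, a leucine zipper factor, maintain the fat cell state and switch on genes such as Adipoq and Fabp4. In mouse skin the dermal fat layer thickens while hair follicles grow and thins while they rest, and insulin acting through Akt drives fat storage in adipocytes.

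Adipoq, Lep, Fabp4 and Lipe had their lowest mean score in L84, Lep had its highest in LA, and the regulators Pparg and Cebpa had lower mean scores in LC than in any transgenic line. None of the 7 members passed the test in any comparison. The test was a limma fit over the 9 arrays with each gene's own variance, and a gene was called where its p, adjusted over all 12393 genes by Benjamini-Hochberg, was under 0.05. In L60 against LC, 0 of 7 members were called, against 0% of all genes. In L84 it was 0 of 7 against 0.565%, and in LA 0 of 7 against 1.8%. At an unadjusted p under 0.05 there were 0 members in L60, 2 in L84 (Fabp4 and Lipe) and 0 in LA. All genes gave 4.72%, 12.2% and 20.8%. These counts take each gene as the average of its probe sets. With limma's moderated variance 0 members were called as well, but it called 0 of all genes, so it could not single out members.

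**Figure D1:**
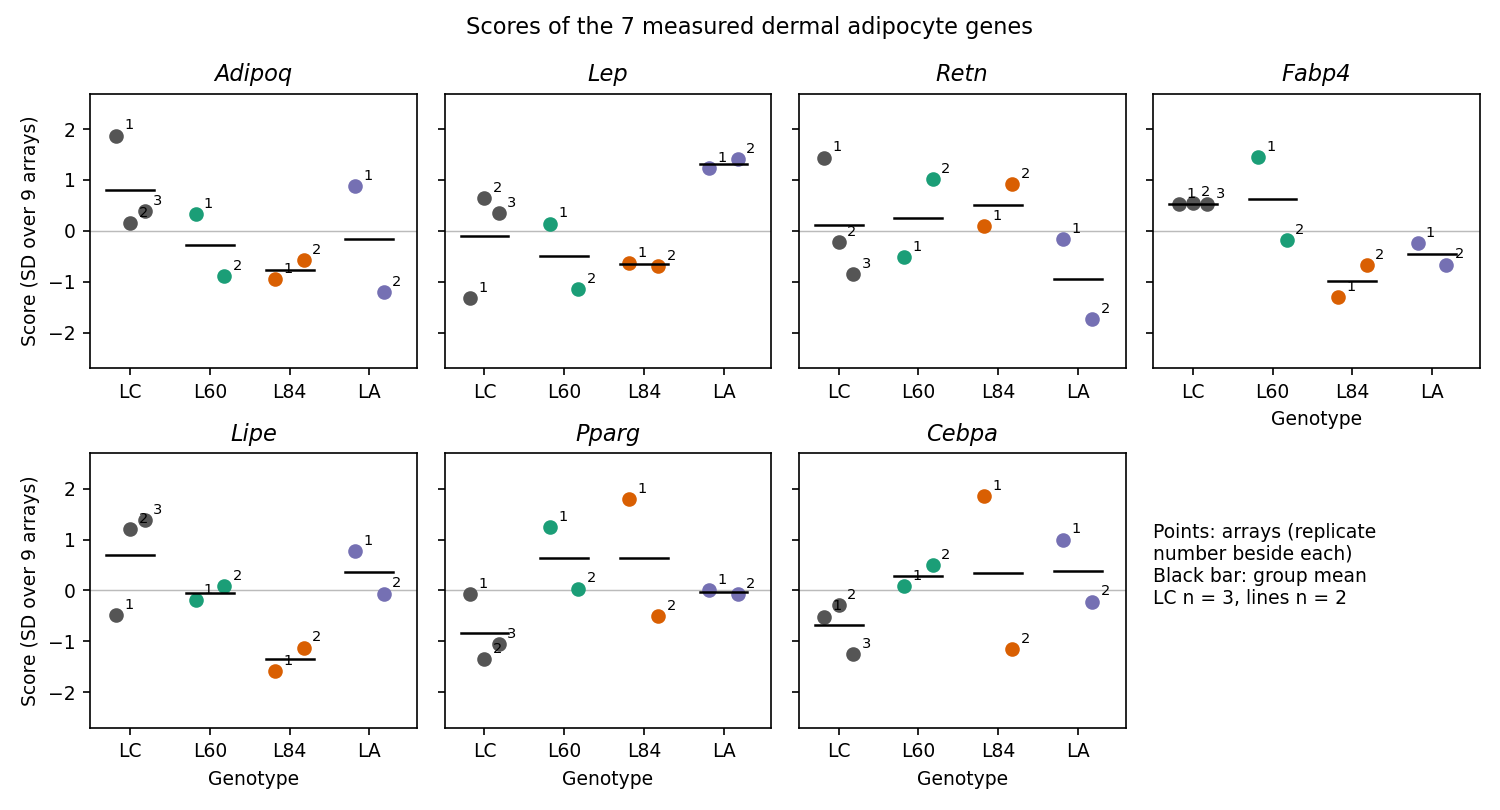
Score of each of the 7 measured genes (vertical axis, in SDs of a probe set over the 9 arrays) by genotype (horizontal axis), with 1 point per array, its replicate number beside it and the group mean as a bar. Both LA arrays stand highest for Lep, at 1.23 and 1.42, and both L84 arrays stand lowest for Lipe, at -1.58 and -1.12.

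Among the hormones, Adipoq encodes adiponectin, which raises insulin sensitivity. It scored 1.87, 0.148 and 0.395 on the 3 LC arrays, 0.326 and -0.889 in L60, -0.948 and -0.578 in L84, and 0.874 and -1.2 in LA. Both L84 arrays lay below all LC arrays, whereas L60 and LA each had 1 array within the range of LC and 1 below it. The difference from LC was -1.57 ± 0.884 (SE) in L84 (adjusted p = 0.57), -1.09 ± 0.884 in L60 (adjusted p = 1) and -0.966 ± 0.884 in LA (adjusted p = 0.549). The LA value rested on LA 2, without which it was 0.0694, and reached -2 without LA 1.

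Lep encodes leptin, which reports the size of fat stores to the brain. Its scores were -1.32, 0.645 and 0.345 in LC, 0.144 and -1.15 in L60, -0.627 and -0.691 in L84, and 1.23 and 1.42 in LA. LA stood above every other array, while the L60 and L84 arrays lay within the range of LC. LA differed from LC by 1.43 ± 0.717 (adjusted p = 0.323), from L60 by 1.83 ± 0.786 (adjusted p = 0.343) and from L84 by 1.98 ± 0.786 (adjusted p = 0.475). Against LC the LA difference ran from 0.829 without LC 1 to 1.81 without LC 2. L60 and L84 differed from LC by -0.393 and -0.55, both within the SE of 0.717, and in L60 the sign turned without L60 2 (0.253).

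Retn encodes resistin, an adipocyte hormone of the mouse. It scored 1.44, -0.22 and -0.844 in LC, -0.516 and 1.02 in L60, 0.1 and 0.912 in L84, and -0.162 and -1.73 in LA. The spread within LC (SD 1.18) and within L60 (SD 1.09) was larger than either difference from LC in these lines, 0.126 ± 0.96 in L60 and 0.381 ± 0.96 in L84. LA differed from LC by -1.07 ± 0.96 (adjusted p = 0.541). Retn and Lep thus had opposite signs in LA, and neither was called.

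Of the lipid genes, Fabp4 encodes the fatty acid carrier of the adipocyte cytoplasm. Averaged over its 4 probe sets it scored 0.533, 0.553 and 0.519 in LC, 1.45 and -0.184 in L60, -1.29 and -0.674 in L84, and -0.234 and -0.663 in LA. All L84 and LA arrays lay below all LC arrays, and the L60 arrays lay on either side. The difference from LC was -1.52 ± 0.519 in L84 (unadjusted p = 0.0326 by limma, adjusted p = 0.363) and -0.984 ± 0.519 in LA (adjusted p = 0.34). In L60 it was 0.0959 ± 0.519 (adjusted p = 1), with -0.719 without L60 1 and 0.911 without L60 2. L84 differed from L60 by -1.62 ± 0.568 (adjusted p = 0.56), which was -0.8 without L60 1.

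The 4 probe sets of Fabp4 formed pairs. Probe set 1417023_a_at scored 0.536, 1.1 and 1.1 in LC, 0.615 and 0.579 in L60, -1.49 and -0.887 in L84, and -0.345 and -1.21 in LA. Probe set 1451263_a_at scored 0.454, 1.32 and 0.896 in LC, 0.836 and 0.412 in L60, -1.16 and -1.41 in L84, and -0.417 and -0.934 in LA. In both, every LC and L60 array was above 0 and every L84 and LA array below 0. Their differences from LC were -2.1 ± 0.357 and -2.17 ± 0.324 in L84 (limma's adjusted p = 0.17 and 0.138 over all probe sets) and -1.69 ± 0.357 and -1.57 ± 0.324 in LA (adjusted p = 0.108 and 0.103). Neither was called, where 0.314% of probe sets were called in L84 and 1.15% in LA. Their unadjusted p in LA was 0.00523 and 0.00477 by limma, where the gene average had 0.116.

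The other pair, 1424155_at and 1425809_at, stood apart through L60 1, where they scored 2.01 and 2.32 against -1.39 and -0.338 on L60 2. Probe set 1425809_at gave the same score, -0.22, on 4 arrays (LC 2, LC 3, L84 2 and LA 1). In L84 these probe sets differed from LC by -0.996 ± 1.04 and -0.808 ± 0.881, and in LA by -0.21 ± 1.04 and -0.471 ± 0.881. L60 1 was also the array with the highest score for 18S ribosomal RNA, 2.09, against 1.13 on LC 1, 0.339 on L84 1 and -0.642 to -0.528 on the other 6 arrays. The part of 18S in the Fabp4 values was not tested.

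**Figure D2:**
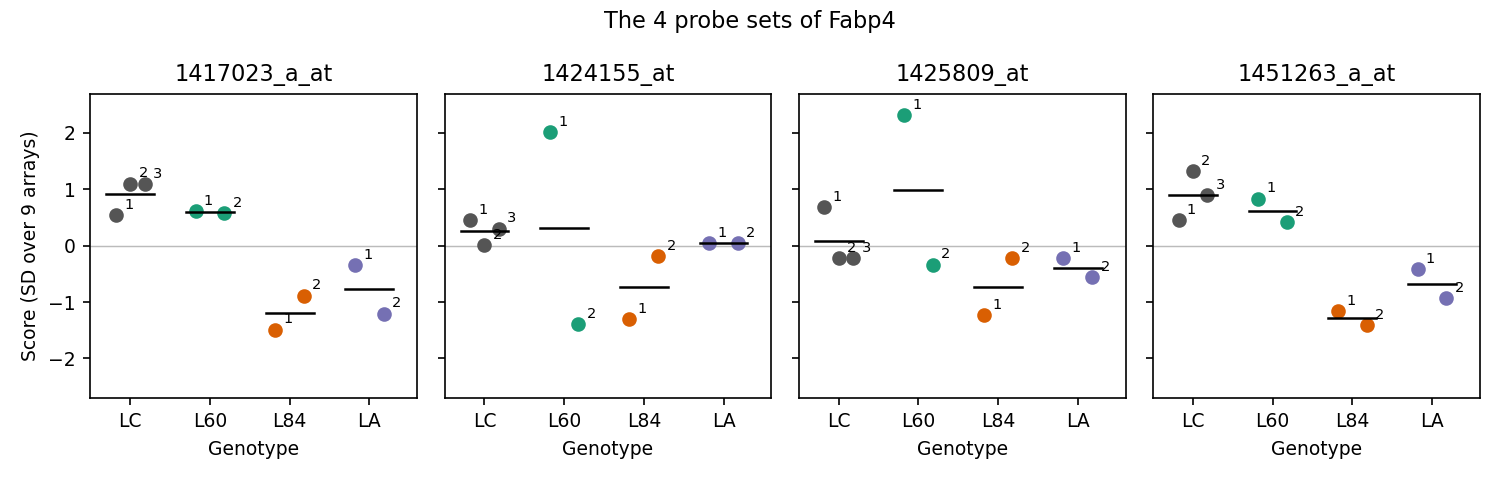
Score of each Fabp4 probe set (vertical axis, in SDs over the 9 arrays) by genotype (horizontal axis), with 1 point per array, its replicate number beside it and the group mean as a bar. Probe sets 1417023_a_at and 1451263_a_at separate LC and L60 from L84 and LA, whereas 1424155_at and 1425809_at peak on L60 1 at 2.01 and 2.32.

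Lipe encodes hormone-sensitive lipase, which frees fatty acids from stored triglyceride. It scored -0.483, 1.2 and 1.39 in LC, -0.197 and 0.0869 in L60, -1.58 and -1.12 in L84, and 0.773 and -0.0604 in LA. The L84 arrays were the lowest of all 9, and LC 1 was the lowest array outside L84. L84 differed from LC by -2.05 ± 0.66 (unadjusted p = 0.0266 by limma, adjusted p = 0.34), with -2.64 without LC 1 and -1.71 without LC 3. The difference was -0.756 ± 0.66 in L60 (adjusted p = 1) and -0.344 ± 0.66 in LA (adjusted p = 0.781), which became -0.936 without LC 1 and 0.073 without LA 2. LA exceeded L84 by 1.71 ± 0.723 (adjusted p = 0.491). Among the 6 arrays low in 18S, L84 2 stood -2.41 from the mean of LC 2 and LC 3 for Lipe and -1.21 for Fabp4. In bulk skin, fewer fat cells and less of these RNAs per fat cell cannot be told apart.

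Of the regulators, Pparg scored -0.0754, -1.36 and -1.06 in LC, 1.24 and 0.0376 in L60, 1.8 and -0.509 in L84, and 0.00147 and -0.0754 in LA. Both L60 arrays were above all LC arrays, and LA 2 had the same score as LC 1. The difference from LC was 1.47 ± 0.845 in L60 (adjusted p = 1), 1.47 ± 0.845 in L84 (adjusted p = 0.577) and 0.794 ± 0.845 in LA (adjusted p = 0.602). The L84 value ran from 0.322 without L84 1 to 2.63 without L84 2.

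Cebpa scored -0.515, -0.284 and -1.25 in LC, 0.0827 and 0.493 in L60, 1.86 and -1.16 in L84, and 0.997 and -0.218 in LA. The L60 and LA arrays were all above LC, and the L84 arrays were the highest and the second lowest of the 9. The differences from LC were 0.972, 1.03 and 1.07 in L60, L84 and LA, each with an SE of 0.99 (adjusted p = 1, 0.744 and 0.553). Without L84 1 the L84 difference was -0.476. For both regulators L84 1 held the highest score, and L84 1 and LA 2 had the widest scores over all genes (SDs of 1.13 and 1.2, against 0.675 to 0.836 on the other 7 arrays). In L84 both regulators thus differed upward from LC, whereas Adipoq, Fabp4 and Lipe differed by -1.57, -1.52 and -2.05. L84 1 also had the highest mean of sebaceous gland (1.11), basal keratinocyte (1.31) and skeletal muscle markers (1.57), described below. The part of these tissues in the Pparg and Cebpa scores was not tested.

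The promoters of the regulators and of 3 fat genes are shown because Pparg and Cebpa proteins act on such genes by binding DNA. Adipoq and Lipe had their highest mean score in LC, and Lep had it in LA. RefSeq's table of promoters (GRCm38.p6) held 8 of the 9 members, without Fabp4. Each line gives the 250 bases before an annotated start, read 5′ to 3′ on the gene's strand. For Pparg the last of 3 annotated starts is shown and for Lipe the second of 2. Capitals mark matches on either strand to TTGCNNAA (a C/EBP-type motif), AGGTCA (a nuclear receptor half-site), CCAAT or TATAAA.
Lep, chr6:29059971-29060220, plus strand: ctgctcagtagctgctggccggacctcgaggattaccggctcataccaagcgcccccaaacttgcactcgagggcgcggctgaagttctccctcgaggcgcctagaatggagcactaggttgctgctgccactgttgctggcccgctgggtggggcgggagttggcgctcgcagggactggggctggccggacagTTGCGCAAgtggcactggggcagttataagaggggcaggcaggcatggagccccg
Adipoq, chr16:23146286-23146535, plus strand: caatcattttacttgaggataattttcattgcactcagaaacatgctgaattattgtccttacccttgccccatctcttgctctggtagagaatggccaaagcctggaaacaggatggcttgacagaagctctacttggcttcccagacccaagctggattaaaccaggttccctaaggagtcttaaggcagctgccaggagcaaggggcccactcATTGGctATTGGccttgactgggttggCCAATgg
Lipe, chr7:25390113-25390362, minus strand: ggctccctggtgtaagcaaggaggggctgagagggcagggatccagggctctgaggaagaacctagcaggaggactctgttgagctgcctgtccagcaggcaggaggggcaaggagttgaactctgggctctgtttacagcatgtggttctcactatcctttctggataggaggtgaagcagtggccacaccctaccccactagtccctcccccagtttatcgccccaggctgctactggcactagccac
Pparg, chr6:115421816-115422065, plus strand: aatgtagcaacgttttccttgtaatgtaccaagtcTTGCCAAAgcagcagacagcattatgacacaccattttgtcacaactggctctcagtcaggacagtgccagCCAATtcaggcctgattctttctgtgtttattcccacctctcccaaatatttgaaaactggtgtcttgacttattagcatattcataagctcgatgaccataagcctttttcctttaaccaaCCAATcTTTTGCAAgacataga
Cebpa, chr7:35119043-35119292, plus strand: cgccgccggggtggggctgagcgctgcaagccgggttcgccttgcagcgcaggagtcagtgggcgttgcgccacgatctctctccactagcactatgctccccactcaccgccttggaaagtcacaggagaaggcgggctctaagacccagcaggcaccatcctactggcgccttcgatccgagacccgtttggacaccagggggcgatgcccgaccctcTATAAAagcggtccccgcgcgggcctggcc
Lep held 1 C/EBP-type match, TTGCGCAA, which reads the same on both strands, and Pparg held 2, TTGCCAAA and TTTTGCAA. Such a match stood in 9.56% of the 32851 promoters in the table over the same length. Outside the windows shown, Plin1 held 2 such matches. Retn, Cfd and the other annotated starts of Pparg and Lipe held none. Adipoq had 3 CCAAT matches and Pparg 2 (33.8% of promoters hold at least 1), and Cebpa had 1 TATAAA match (12.4%). No AGGTCA match (14% of promoters) lay in these 5 windows, although each of the other 2 annotated Pparg starts had 1. The Lipe window had none of the 4 motifs. A match is a description of the sequence, and binding was not measured.

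**Figure D3:**
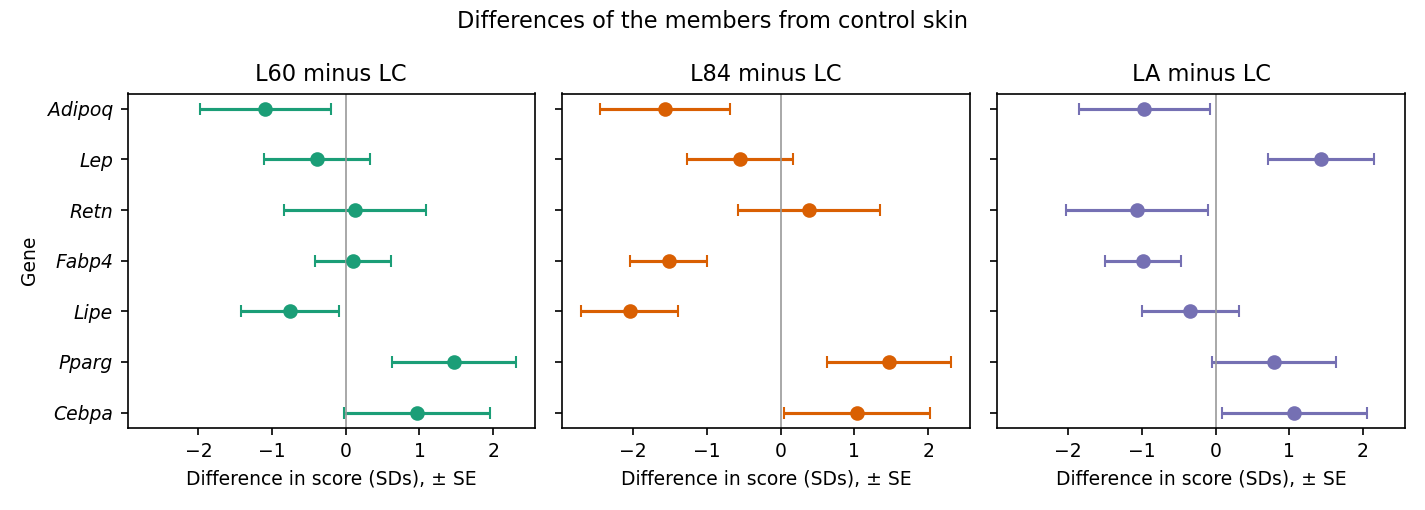
Difference in score from LC (horizontal axis, in SDs of a probe set over the arrays, with SE as error bars) for the 7 measured genes (vertical axis) in L60, L84 and LA. Fabp4 is the average of its 4 probe sets. Fabp4 and Lipe lie farthest below 0 in relation to their SE in L84, at -1.52 and -2.05, and Lep lies above 0 only in LA, at 1.43, and none was called.

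As a group the 7 members had a median difference from LC of 0.0959 in L60, -0.55 in L84 and -0.344 in LA, beside 0.0777, 0.00308 and 0.247 for all genes. The number of members with a higher score was 4, 3 and 3. Arrays of the line and of LC did not overlap for 2 members in L60, 3 in L84 and 3 in LA, where 25.1%, 28.5% and 48.8% of all genes did not overlap. In L60 these were Pparg and Cebpa, both higher (14.4% of all genes), and in L84 they were Adipoq, Fabp4 and Lipe, all lower (14.7% of all genes). In LA they were Lep and Cebpa, higher (27.8% of all genes), and Fabp4, lower (21% of all genes). The median turned sign in L60 without L60 1 (-0.613) and in LA without LA 2 (0.073), and in L84 it was -0.173 without LC 2 and -1.03 without LC 1.

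The lines were also set against each other. Of the 7 members 0 were called in L84 against L60, in LA against L60 and in LA against L84, where 0.113%, 0.629% and 0.0161% of all genes were called. At an unadjusted p under 0.05 these comparisons held 1 member (Fabp4), 0 and 0, against 8.03%, 16.2% and 10.6% of all genes. Arrays did not overlap for 2 members in L84 against L60 (Fabp4 and Lipe), 3 in LA against L60 (Lep, Fabp4 and Pparg) and 4 in LA against L84 (Lep, Fabp4, Lipe and Retn), where 29.4%, 50.4% and 33.5% of all genes did not overlap. An F test over the 4 genotypes called 0 members as well, against 0.734% of all genes, and 0 reached an unadjusted p under 0.05, against 14.8%. Its largest value among the members was 4.13 for Fabp4 averaged over its probe sets (adjusted p = 0.393). Probe sets 1417023_a_at and 1451263_a_at alone gave F of 15.7 and 19.5 (unadjusted p = 0.00558 and 0.00346, adjusted p = 0.188 and 0.163). Probe sets 1424155_at and 1425809_at gave 0.381 and 1.2.

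With the 3 transgenic lines together against LC, 0 members were called by limma, against 0.637% of all genes, and 0 reached an unadjusted p under 0.05, against 13.3%. Likewise 0 members had arrays free of overlap, against 6.67%. These counts average the probe sets of a gene. Fabp4 probe sets 1417023_a_at and 1451263_a_at alone differed by -1.37 and -1.34 (limma's unadjusted p = 0.00432 and 0.00315, adjusted p = 0.194 and 0.172). Probe sets 1424155_at and 1425809_at differed by -0.383 and -0.123. A two-sided exact permutation test of 6 arrays against 3 can reach a p of 0.0238 at the least. It gave a p of 0.0714 for Pparg (difference 1.25), 0.119 for Adipoq (-1.21) and for Cebpa (1.03), 0.143 for Lipe (-1.05), 0.238 for Fabp4 (-0.803), 0.833 for Retn (-0.188) and 0.881 for Lep (0.163). The 3 comparisons with LC share the same control arrays, so like signs among them are not independent.

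Markers of other cell types of skin were read in the same samples. Hair shaft keratins, for which 9 of 10 listed genes were measured, had mean scores of 1.09 to 1.18 in LC, 0.142 and 0.347 in L60, -1.04 and -0.951 in L84, and -0.987 and -0.909 in LA. All 9 fell in L84 and in LA, where 0.403% and 0.984% of all genes fell. In L60 all 9 scored lower than in LC as well (median difference -1.02), each with an unadjusted p under 0.05 by limma, but 0 were called. Skeletal muscle markers (10 of 10 measured), which mark the muscle sheet under the dermal fat, had means of -0.395 to -0.325 in LC, -1.3 and -0.519 in L60, 1.57 and 0.194 in L84, and 0.89 and 0.259 in LA. Dermal fibroblast markers (6 of 6) scored -1.55 and 0.588 on the L84 arrays and 1.06 and 0.722 on the LA arrays, against -0.375 to -0.0269 in LC. Basal keratinocyte markers had medians of 0.906, 1.56 and 0.885 in L60, L84 and LA relative to LC, endothelial markers 0.326, -0.369 and 0.0751, and blood markers -0.371, -1.16 and -0.61. Of the muscle, fibroblast, endothelial and blood markers 0 were called in L60, L84 or LA against LC. Of the 6 basal keratinocyte markers 2 were called higher in L84 and 2 in LA, where 0.565% and 1.8% of all genes were called in either direction. The part of these tissues in the scores of the fat genes was not tested.

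Among the other genes of fat metabolism, 8 lists with 88 measured genes were read in the same way. Of these 88, 0 were called in L60, 0 in L84 and 2 in LA, both higher (0.815% of all genes). Genes of lipid droplet coats and lipolysis had a median difference of 0.148 in L84, with 8 of 13 higher. Plin2, a droplet coat protein of many cell types, differed by 2.2 ± 0.571 there (adjusted p = 0.259) and Cidea, a droplet protein also found in sebaceous glands, by 2.06 ± 0.555 (adjusted p = 0.277). Cidec, which fuses droplets in white adipocytes, differed by -1.86 ± 0.764 (adjusted p = 0.433). It scored 0.0301, 1.25 and 1.27 in LC against 0.0301 and -2.04 in L84. Cidea and Cidec were chosen after their values were seen. In L60 the gene of this list with the smallest p was Plin5, a droplet protein of oxidative tissue, at 1.45 and 1.64 against -0.763 to -0.214 in LC (difference 2.09 ± 0.542, adjusted p = 0.822).

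Genes that take up fatty acids and build triglyceride had a median of -0.369 in L84, with 4 of 13 higher. Pck1, which makes glycerol for triglyceride, scored 0.478, 0.0322 and 0.21 in LC and -1.36 and -1.18 in L84 (difference -1.51 ± 0.292, adjusted p = 0.164). Its L60 and LA arrays, at 0.585, 0.224, 0.909 and 0.0974, were above 0 on average over 2 probe sets. These went opposite ways against LC in L60 (-0.312 and 0.641) and in LA (-1.02 and 1.55), and the same way in L84 (-2.06 and -0.955). Fabp5, a fatty acid carrier also made by keratinocytes, differed by -1.9 ± 0.416 in L84 (adjusted p = 0.195) and by -1.99 ± 0.416 in LA (adjusted p = 0.0932). Lpl, the lipase that frees fatty acids from lipoproteins, and Cd36, a fatty acid transporter, were chosen after their values were seen. Lpl scored 1.11, 1.26 and 0.568 in LC and -1.28 and -0.935 in L84 (difference -2.08 ± 0.44, adjusted p = 0.191). Cd36 differed by -1.69 ± 0.585 (adjusted p = 0.37). None of these was called.

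Genes that make fatty acids anew had higher scores in L84. The median difference was 1.6, with 9 of 11 genes higher and 0 called, beside 0.00308 for all genes, and it was -0.34 in L60 and -0.385 in LA. Me1, the malic enzyme that supplies NADPH, scored 1.93 and 1.05 in L84 and -0.478 to 0.448 in LC (difference 1.65 ± 0.419, adjusted p = 0.252). Mlxipl, a sugar-sensing factor that turns on fat synthesis, scored 1.51 and 1.3 in L84, -0.816 and -1.76 in L60, and 0.1, 0.1 and 0.191 in LC. The L84 median was 0.885 without L84 1. Of the sebaceous gland markers 3 of 6 were measured (Mc5r, Scd3 and Cidea). Their mean scores were 1.11 and 0.872 in L84 against -0.909 to -0.609 in LC. They were -0.487 and -0.252 in L60, and 0.454 and 0.699 in LA, where the fatty acid synthesis median was -0.385. Mc5r alone scored -0.746 and 1.53 in L84 and -1.26 to 0.0913 in LC. Cidea also stands in the droplet list above. Of the 3 markers 0 were called in L60, L84 or LA against LC. The part of sebaceous glands in the scores of the fatty acid synthesis genes was not tested.

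Genes of insulin signalling and glucose uptake had a median difference of 1.09 in LA, with 9 of 9 higher and 0 called, where 56.1% of all genes were higher. In L60 and L84 8 of 9 were higher, with medians of 0.5 and 0.608, and Akt2, named after its values were seen, was the 1 gene lower in both. Pik3r1, a regulatory subunit of the kinase upstream of Akt, scored 1.94 and 1.04 in L84 and -1.14, -0.655 and -0.327 in LC (difference 2.2 ± 0.436, adjusted p = 0.169). Cavin1, a coat protein of the caveolae that are abundant in fat cells, differed by 1.09 ± 0.28 in LA (adjusted p = 0.131), and 1 of its 3 probe sets went the other way (-0.969).

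Of the other adipocyte regulators, 10 of 12 were higher in LA, beside 56.1% of all genes, and 1 rose. This was Ebf2, a factor of adipocyte precursors and of brown fat, which scored 1.35 and 1.56 in LA and -0.508, -0.555 and -0.437 in LC. The L60 arrays scored -0.706 and -0.445 and the L84 arrays -0.457 and 0.191, so that LA stood above all other arrays. The difference from LC was 1.96 ± 0.213 (adjusted p = 0.0272 by limma). Its 3 probe sets differed by 1.71, 2.17 and 2, each with the same sign. Moderated variance called no gene at all in any comparison, so losing the call with it was not particular to Ebf2. The call was lost without any 1 of LC 1, LC 2, LC 3, L60 1, L60 2, LA 1 and LA 2 (adjusted p = 0.0705 to 0.146), with differences of 1.85 to 2.06. It was lost too with moderated variance (0.115), with the LA and LC arrays alone (0.0532), without the 3 arrays high in 18S (0.163) and by each probe set alone (0.0953 to 0.218).

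The list of other proteins that fat secretes also holds receptors of its hormones and Lpin2, which is neither. In LA 8 of its 12 genes were higher, beside 56.1% of all genes, and 1 rose. This was Serpina3n, a protease inhibitor that many tissues make in inflammation, at 1.81 and 1.53 in LA, -0.505, -0.849 and -0.688 in LC, -0.032 and -0.0568 in L60, and -0.908 and -0.304 in L84. The difference from LC was 2.35 ± 0.217 (adjusted p = 0.0184 by limma). The call was lost without any 1 of the same 7 arrays (adjusted p = 0.0553 to 0.109). It was lost too with moderated variance (0.115), with the LA and LC arrays alone (0.0721) and without the 3 arrays high in 18S (0.166). Since moderated variance called no gene at all, losing the call with it was not particular to Serpina3n. Macrophage markers (6 of 6 measured) had mean scores of 1.34 and 0.757 in LA against -0.513 to -0.465 in LC. Their means were -0.809 and 0.82 in L60 and -1.29 and 0.633 in L84, so L60 2 and L84 2 lay near LA 2. Of these markers 0 were called in L60, L84 or LA against LC. Their part in the Serpina3n score was not tested.

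Precursor genes had median differences of 0.268, -0.00601 and -0.254 in L60, L84 and LA. In LA 5 of 12 were higher and 0 were called. Of this list Pdgfrb, a growth factor receptor of perivascular cells and fibroblasts, scored 1.98 and 1.13 in LA and -1.06 to -0.0418 in LC. The LA difference was 2.19 ± 0.438 (adjusted p = 0.0861 by limma). Bmp4, a ligand that commits precursors to fat and acts in hair follicles, scored -2.03 and -0.959 in L84 against 0.187 to 0.884 in LC (difference -2.14 ± 0.403, adjusted p = 0.162). Thermogenic fat genes had medians of -0.298, 0.894 and 0.788 in L60, L84 and LA over 6 genes, with 0 called. In L84 and in LA 5 of the 6 were higher. Elovl3 was lower in L60, L84 and LA (-1.65, -0.943 and -0.67), and Ucp1 scored -1.02 and 2.1 on the L84 arrays. Both were named after their values were seen. Medians of the skeletal muscle markers were -0.522, 1.34 and 0.962. The part of muscle in the thermogenic scores was not tested. Dio2, which activates thyroid hormone, differed by 1.18 ± 0.438 in LA (adjusted p = 0.227), and Cox7a1, a respiratory subunit shared with muscle, by 1.65 ± 0.644 in L84 (adjusted p = 0.411).

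**Figure D4:**
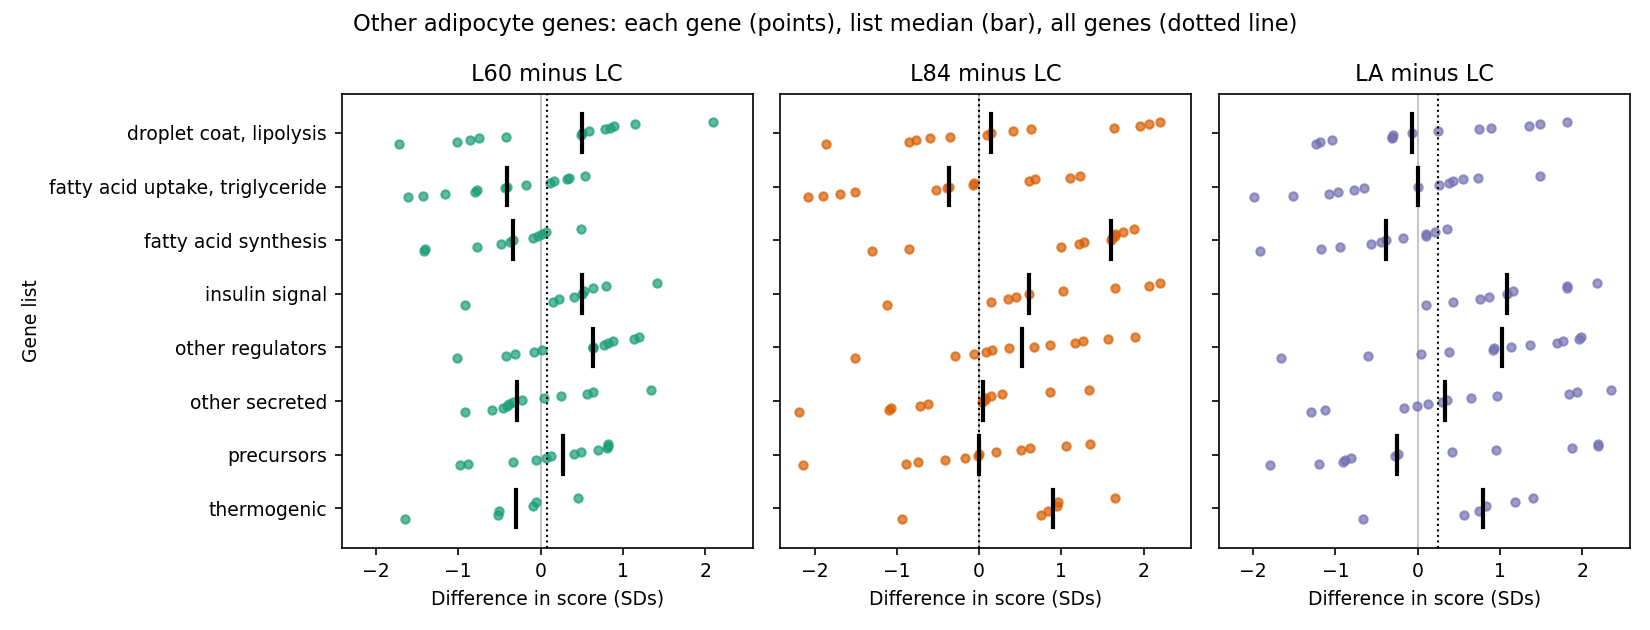
Difference in score from LC (horizontal axis, in SDs) of each measured gene in 8 lists of fat genes (vertical axis) in L60, L84 and LA, with the list median as a bar, all genes' median as a dotted line and no error bars. The fatty acid synthesis median stands at 1.6 in L84 and at -0.34 and -0.385 in L60 and LA, and the insulin signal median stands at 1.09 in LA.

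The genes most like each member over the 9 arrays were found by Pearson's r among 12034 named genes outside the lists of fat genes. These values describe the nearest patterns among many genes and carry no test. For Fabp4 they were Smap1, Polr1a, Scrn2, Hsd11b1 and Itga3 (r = 0.938 to 0.962). For Lipe they were Eif2ak1, Krt17, Atp6v1g1, Cldn3 and Ptms (0.916 to 0.943). For Adipoq they were Pou2f2, B4galt4, Rps6ka3, Ubd and Il9 (0.887 to 0.923), for Lep Pax4, Fut1, Igk-V21, Sncaip and Gipc2 (0.908 to 0.946), and for Retn Nin, Cdkn2c, Matn2, Sec61b and Svbp (0.858 to 0.89). For Pparg they were Slc2a1, Unk, Use1, Sptssa and Eola1 (0.958 to 0.978), and for Cebpa Morc3, Wnk2, Syf2, Xiap and Hdac5 (0.933 to 0.951). The mean of the 7 members was nearest to Mesp1, Scaf4, Diablo, Myl12a and Ccdc84 (0.902 to 0.934). No gene was among the nearest of 2 members.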

How the data were processed

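RNA pools of whole mouse skin were hybridised to 9 Affymetrix arrays, grouped by sample title. RMA, with no version, is named per the submitters' processing notes. What the authors deposited is a score per probe set, already standardised, as the values show (SDs within 7.54e-08 of 1), and the scale before that is not given in the sources used here. Ties occurred in 44.3% of probe sets.

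Probe sets naming 1 gene alone (20380) were averaged to 12393 genes. The averages were not scaled again, so a gene with several probe sets can have an SD under 1. Genotype means were estimated with limma 3.58.1 (R 4.3.3), leaving 5 residual degrees of freedom. The main test used no variance moderation. On simulated data for L84 against LC (12393 genes), it found 26%, 90% and 100% of shifts by 5, 10 and 20 residual SDs, with 9 false calls, whereas moderation found 0%. The number of arrays limits the precision.

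The members and lists were chosen with earlier results of these data known. All members are named. Each other list contributes up to 4 called genes, or the 2 of smallest p where none was called. The 5 genes most like each member leave out predicted and clone-named genes. Alternatives left out each array, or the 3 arrays high in 18S together, or used a replicate block, only the groups compared, single or all probe sets, moderated variance, array weights or array medians of 0. Those for the medians of the other lists were added after the data were seen.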

Additional observations from a re-analysis of the deposited data

Results flagged for a closer look

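Fatty acid synthesis genes with opposite sides in different lines stood out. Mlxipl had all L60 arrays below and all L84 arrays above the LC arrays, and the difference of L84 from L60 was 2.69 (adjusted p = 0.139 by limma). Its LA arrays lay below LC as well, and LA differed from L84 by -1.72 (adjusted p = 0.251). Me1 had the L60 arrays below and the L84 arrays above all LC arrays, with L84 at 2.42 from L60 (adjusted p = 0.293). None of these differences between lines passed the test, and the comparisons share their LC arrays. No sample could be set against its own group as an outlier, since groups held 2 or 3 arrays.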

How the results depend on the processing

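Members called stayed at 0 in every comparison and under every alternative that could be fitted. Of 520 pairs of a member's difference and an alternative, 495 kept the direction and 25 turned it. Many of these pairs could not turn by construction. Moderated variance, the groups compared alone and the loss of an array of another group leave the difference as it was. So do all probe sets of a gene with 1. The 495 therefore include outcomes fixed in advance. For the median of the members, leaving out 1 array at a time gave -0.613 to 0.253 in L60 against LC, -1.03 to -0.173 in L84, -0.761 to 0.073 in LA, -1.07 to -0.144 in L84 against L60, -0.714 to 0.709 in LA against L60, -0.434 to 0.786 in LA against L84 and -0.673 to 0.0734 for the 3 lines together, whose value was -0.188. Without the 3 arrays high in 18S it was -0.72 in L60 and -0.666 for the lines together. It was -0.996 in L84 with array weights, and with every probe set -0.902 in L84, -0.766 in L84 against L60 and -0.471 in LA against L60, where Fabp4 counts 4 times.

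Directions turned when 1 array was left out for Adipoq in LA (-2 to 0.0694), Lep in L60 (-1.04 to 0.253), Lep in the lines together (-0.441 to 0.54), Retn in L60 (-0.642 to 0.894), in L84 (-0.104 to 1.04) and in the lines together (-0.673 to 0.47), Fabp4 in L60 (-0.719 to 0.911), Lipe in LA (-0.936 to 0.073) and Cebpa in L84 (-0.476 to 2.54). Without the 3 arrays high in 18S the turned values were -0.666 for Lep and 0.861 for Retn in the lines together, -0.72 for Fabp4 in L60 and -0.392 for Cebpa in L84. With array weights they were -0.282 for Lep and 0.215 for Retn in the lines together. Fabp4 in L60 was -0.315 by 1417023_a_at and -0.267 by 1451263_a_at, and Cavin1 in LA was -0.969 by 1421431_at. The cause was not tested.

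The replicate block gave -0.359 for Retn in L60, -0.104 in L84 and -0.673 for the members' median in the lines together. LC 3, alone in its block, then carries no weight. The deviations of same-numbered arrays correlated at -0.0833 to 0.345, highest between L84 and LA, and not every pair was above 0.1. Between lines of 2 arrays each, replicates 1 and 2 give the same r by construction. The check could therefore not settle whether same-numbered arrays were paired, and the numbers were not taken as pairs. The block called 0 members and lost Ebf2 (adjusted p = 0.192) and Serpina3n (adjusted p = 0.235) in LA. With array medians set to 0 all genes' median in LA went from 0.247 to 0.115, and no member's direction turned.

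All genes called numbered 0 in L60 against LC (0 to 11 over the alternatives), 70 in L84 (0 to 129), 223 in LA (0 to 306), 14 in L84 against L60 (0 to 15), 78 in LA against L60 (0 to 112), 2 in LA against L84 (0 to 131), 79 in the lines together (0 to 235) and 91 by the F test (0 to 188). Moderated variance gave 0 in each of these, and other alternatives gave 0 as well in L60 against LC, L84 against L60 and LA against L84. A score holds no record of signal over background. Only the arrays of the groups compared were not run for the lines together or the F test, which need all groups.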
